A study of Mus musculus with 6 samples.

Results

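Krüppel-like factors are transcription factors that bind GC-rich and CACCC-containing DNA through an array of zinc fingers at their C-terminal end. In endothelial cells, which line the vessels, Klf2 and Klf4 are known for their induction by the shear stress of flowing blood, through a kinase cascade that ends in ERK5 (Mapk7) and the MEF2 factors, and the cerebral cavernous malformation (CCM) proteins are known to restrain that cascade. The 2 factors raise genes of the quiescent vessel, such as Nos3 and Thbd, and hold down adhesion molecules and vasoconstrictors. The 9 members described here are Klf2, Klf3, Klf4, Klf6, Klf7, Klf9, Klf10, Klf11 and Klf13, taken by gene symbol from a table of 23793 rows. Each had 1 row of its own, and none shared a row with another symbol.

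The libraries were made from endothelial cells sorted by fluorescence from mouse lungs at postnatal day 7, on a mixed strain background. There were 3 libraries labelled control and 3 labelled mutant, with replicates A, B and C in each group. The sample titles name Vegfa and Shh for both groups, and epithelial Vegfa is the subject of the series title. Regulatory sequences of Shh are widely used to drive Cre in lung epithelium, but the alleles of each group are left unnamed in the labels, as is whether a library pools animals. The comparison asks which transcripts of the endothelium differ between mutant and control lungs. Levels are in FPKM, fragments scaled by transcript length and library size, so they can be compared between genes, and the total number of fragments is unknown. Values by library are given in the order A, B, C.

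The lowest values gave depths relative to control A of 0.897 to 1.49. All 14 pan-endothelial markers were measured, with a summed level of 8128 to 8995 FPKM in the controls and 6799 to 7448 FPKM in the mutants, against 10.8 to 39.3 and 11.1 to 36.5 FPKM for 10 leukocyte markers. The lower sum in the mutants rested largely on Cldn5, which averaged 2190 FPKM in the controls and 1069 FPKM in the mutants. Of the 14, 9 were lower and 5 higher in mean, and only Cldn5 had its mutants below all controls. Libraries that share a letter deviated from their group means together, with correlations across genes of 0.361 for A, 0.268 for B and 0.191 for C, so they are called pairs below. The test was limma on log2(FPKM + 1) over 11693 rows whose mean reached 1 FPKM, with Benjamini-Hochberg adjustment over all of them and a threshold of 0.05. It called 16 rows lower and 0 higher in the mutant, or 6 lower and 0 higher with the pair as a block.

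The proximal promoters of Klf2 and Klf4 are shown because these are the most abundant members and the MEF2 factors are known to act on them. Both stretches run from 250 bases before the RefSeq transcription start to the base before it, read 5′ to 3′ on the strand of the gene in build GRCm38.p6: chr8:72318812-72319061 on the plus strand for Klf2 and chr4:55532476-55532725 on the minus strand for Klf4. Capitals mark matches to the MEF2 consensus and to the GC box GGGCGG on either strand.
Klf2: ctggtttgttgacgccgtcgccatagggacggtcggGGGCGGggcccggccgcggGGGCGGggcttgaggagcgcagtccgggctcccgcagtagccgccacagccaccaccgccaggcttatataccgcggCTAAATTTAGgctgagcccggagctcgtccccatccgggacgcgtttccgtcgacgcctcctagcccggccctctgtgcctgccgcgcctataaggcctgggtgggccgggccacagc
Klf4: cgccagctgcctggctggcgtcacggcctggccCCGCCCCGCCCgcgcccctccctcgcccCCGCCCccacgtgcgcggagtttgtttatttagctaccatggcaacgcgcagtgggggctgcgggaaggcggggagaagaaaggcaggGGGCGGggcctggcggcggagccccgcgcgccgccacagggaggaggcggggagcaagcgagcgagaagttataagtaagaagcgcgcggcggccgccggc

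The Klf2 promoter held 1 match to the MEF2 consensus, CTAAATTTAG, with its first base at -118 from the start. Windows of 250 bases before to 50 bases after the start were found for 8 of the 9 members, all but Klf10, and the Klf2 window was the only 1 of these 8 with a MEF2 match. Among all 32851 RefSeq promoter windows of that length, 3.19% held one. The GC box lay in 7 of the 8 windows, with 2 matches for Klf2 and 4 for Klf4, of which the first 2 share a base, against 35.7% of all windows. The motif CACCC, searched on both strands and able to share bases with a GC box, lay in 5 of the 8 windows, against 57.5% of all windows. A match describes these letters and not the binding of a factor.

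Klf2 and Klf4 dominated the family in these cells. In the controls Klf2 averaged 502 ± 169 FPKM (SD, n = 3) and stood at rank 102 among all rows, with 0.424% of rows above it. Klf4 followed at 254 ± 50.6 FPKM and rank 233, then Klf3 at 85.9 ± 3.04 FPKM. The control ranges of these 3 genes did not overlap with those of their neighbours in the order. Next came Klf6 (63.6 ± 9.42 FPKM), Klf10 (63 ± 23.3 FPKM) and Klf13 (47.9 ± 3.92 FPKM), where the range of Klf10 overlapped with both others and reached that of Klf3 through control A. Klf7 (34.9 ± 3.08 FPKM) and Klf11 (31.9 ± 0.36 FPKM) overlapped with each other. Klf9 was lowest and apart at 15.1 ± 0.363 FPKM. The order by mean level was the same in the mutants.

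The members differed in how steady they were. Klf11 and Klf9 varied least between the controls, with a coefficient of variation of 1.13% and 2.40%. Klf2 and Klf10 varied most, at 33.7% and 36.9%. The summed level of the 9 was 1043, 1302 and 947 FPKM in the controls and 617, 970.5 and 586 FPKM in the mutants. Mutants A and C lay under every control, and mutant B lay just above control C. Klf2 made up 36.8% to 53.4% of that sum in the controls and 32.4% to 47.8% in the mutants.

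**Figure D1:**
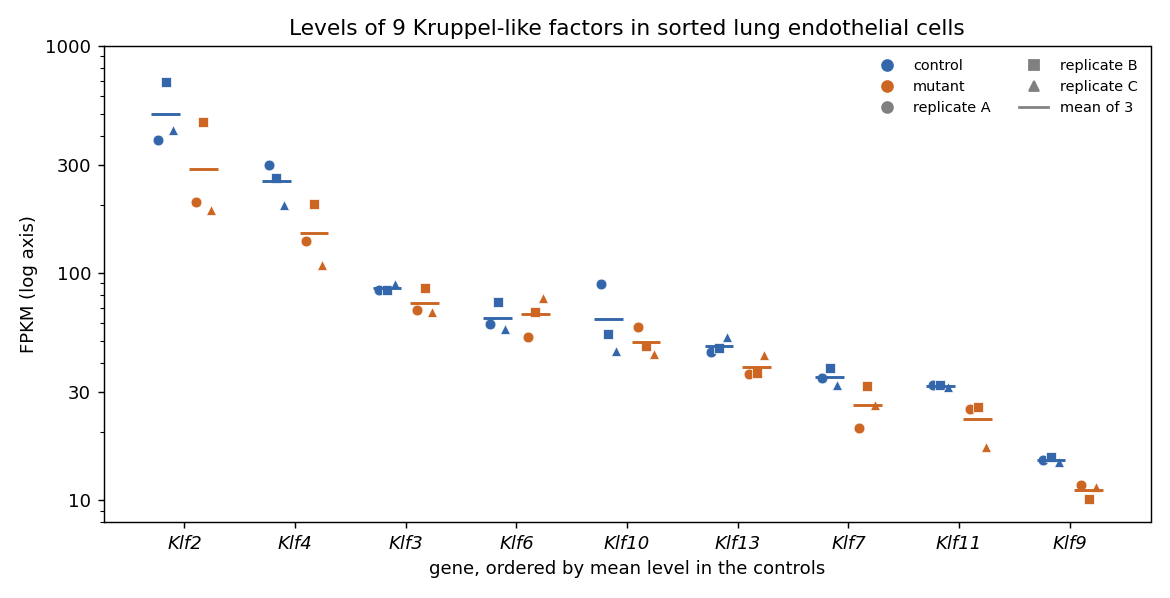
FPKM of the 9 Krüppel-like factors on a log axis, ordered by mean control level, with 1 point per library (blue for control, orange for mutant, the symbol for the replicate letter) and a bar at the mean of 3. The mutant points of Klf7, Klf9, Klf11 and Klf13 lie below all their control points, those of Klf2 and Klf4 are lower in mean but overlap, and those of Klf6 intermingle.

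None of the 9 members passed the adjusted threshold in either direction, with 0.137% of all tested rows called lower and 0% called higher. All 9 had a mean of at least 1 FPKM in each group, so the filter on low values removed none. In mean level 8 of the 9 were lower in the mutant, against 45.4% of all rows. Without adjustment 5 members (Klf4, Klf7, Klf9, Klf11 and Klf13) had a limma p under 0.05, all lower, against 4.29% of rows, and with the pair as a block 6 members did, now with Klf2, against 6.88% of rows. In 4 members the mutants lay below all controls, against 6.57% of rows, and 7 members were lower in every pair, against 17.2% of rows. The median log2 fold change of the members was -0.42 and that of all rows 0.02. Within pairs A, B and C the members' medians were -0.34, -0.31 and -0.35. The members share the same 6 libraries and are not independent of one another. They were also chosen with earlier results of these data known, so these counts are a description. With 3 libraries against 3 an exact permutation test of a single gene cannot go below p = 0.10.

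Klf2, the factor most closely tied to laminar flow (chromosome 8, 72319033 to 72321656, build GRCm38), stood at 384, 696 and 425 FPKM in the controls and 205, 464 and 189.9 FPKM in the mutants. Replicate B was highest in both groups, and mutant B exceeded controls A and C, so the groups overlap although the mutant was lower in every pair. The mutant level was 53.4%, 66.7% and 44.7% of the control level in pairs A, B and C. The log2 fold change was -0.88 ± 0.39 (SE), with a 95% interval of -1.80 to 0.04 and a limma adjusted p of 0.632. With the pair as a block the interval narrowed to -1.27 to -0.49, with a limma adjusted p of 0.218. The value moved from -0.62 without control B to -1.29 without mutant B. In bulk samples, fewer cells of a type and less RNA per cell cannot be told apart.

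Klf4, which shares many endothelial targets with Klf2 (chromosome 4, 55527143 to 55532466), was at 299.7, 262 and 199.5 FPKM in the controls and 139, 202 and 108 FPKM in the mutants. The groups met only at mutant B, which lay just above control C. Its log2 fold change was -0.78 ± 0.26 (SE), with a 95% interval of -1.39 to -0.18 and a limma adjusted p of 0.546 (0.266 with the pair as a block). The ratio of Klf2 to Klf4 was 1.28, 2.66 and 2.13 in the controls and 1.47, 2.29 and 1.76 in the mutants. Pair B had the highest ratio and pair A the lowest in both groups.

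Klf2 and Klf4 belong to the genes that respond quickly when tissue is dissociated, so the immediate early genes of each library are given beside them. The 15 genes of that list summed to 2132, 4442 and 2842 FPKM in the controls and 2985, 3850 and 3560 FPKM in the mutants. Control B was highest for this sum as for Klf2, but in pairs A and C the mutant sum was above the control sum while Klf2 and Klf4 were lower in the mutant. Of the 15, 0 passed the test, 7 were lower and 8 higher in mean, and the median log2 fold change was 0.23. Fosb was at 75.6 ± 31.6 and 119.8 ± 18.9 FPKM in control and mutant libraries (log2 fold change 0.72, adjusted p = 0.603). Ier3 was at 257 ± 68.6 and 403 ± 118 FPKM, Zfp36 at 217 ± 129 and 303 ± 45.3 FPKM, and the phosphatase Dusp1 at 321 ± 95.2 and 225 ± 51 FPKM (adjusted p of 0.64 to 0.727). The part of this response in the levels of Klf2 and Klf4 was not tested.

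Klf3 and Klf6 showed the smallest differences in proportion. Klf3, a repressor that works with the CtBP corepressors (chromosome 5, 64803388 to 64832901), was at 84, 84.2 and 89.4 FPKM in the controls and 68.5, 85.6 and 67.7 FPKM in the mutants. Mutants A and C lay below the controls and mutant B among them, with a log2 fold change of -0.22 ± 0.12 (limma adjusted p = 0.696). Klf6, known from the response to vascular injury (chromosome 13, 5861482 to 5870394), was at 59.8, 74.3 and 56.6 FPKM in the controls and 52.3, 67.1 and 78 FPKM in the mutants. It was the only member with a higher mean in the mutant, at 0.04 ± 0.17 with a 95% interval of -0.37 to 0.45 (limma adjusted p = 0.966). Its direction rested on pair C: the value was -0.09 without mutant C and -0.04 without control C.

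Klf7, studied mainly in neurons, and Klf13, known from T cells and heart development in the mouse, were lower in every mutant library. Klf7 (chromosome 1, 64029447 to 64122282) was at 34.4, 38.2 and 32.1 FPKM in the controls and 20.7, 31.8 and 26.2 FPKM in the mutants. The groups were separated by a narrow gap, between mutant B and control C. Its log2 fold change was -0.42 ± 0.16 (95% interval -0.80 to -0.03, limma adjusted p = 0.598). Without mutant A it was -0.26. Klf13 (chromosome 7, 63886351 to 63938915) was at 44.8, 46.6 and 52.3 FPKM in the controls and 36.1, 36.4 and 43.4 FPKM in the mutants. The pairs were alike, with the mutant at 80.7%, 78.1% and 83.1% of the control, and the log2 fold change was -0.30 ± 0.11 (95% interval -0.57 to -0.04, limma adjusted p = 0.593). Klf3, Klf7 and Klf13 overlap annotated genes on the opposite strand, Klf3 also overlaps one on its own strand, and microRNA genes lie within Klf7 and Klf9 on their own strand. The sources used here do not give the strand setting of the counting, so reads of those genes cannot be told apart from theirs.

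Klf9, Klf10, Klf11 and Klf13 belong to the subgroup of the family that recruits the Sin3 corepressor. Klf9, a gene induced by glucocorticoid and thyroid hormone (chromosome 19, 23141226 to 23168134), was at 15, 15.5 and 14.8 FPKM in the controls and 11.7, 10.1 and 11.4 FPKM in the mutants. The groups were tight and apart, and without the block Klf9 had the lowest limma p of the members (log2 fold change -0.42 ± 0.09, 95% interval -0.64 to -0.19, adjusted p = 0.343). Klf11, an early target of TGF-beta (chromosome 12, 24651274 to 24662789), was at 32.2, 32 and 31.5 FPKM in the controls and 25.3, 25.6 and 17.1 FPKM in the mutants. Here too the mutants lay below all controls, and mutant C was lowest (log2 fold change -0.50 ± 0.16, 95% interval -0.87 to -0.12, limma adjusted p = 0.545). Without mutant C the log2 fold change was -0.31. Klf10, also an early target of TGF-beta (chromosome 15, 38291463 to 38300706), was at 89.4, 54.1 and 45.6 FPKM in the controls and 57.8, 47.7 and 44.1 FPKM in the mutants. Its mean difference rested on control A. The log2 fold change was -0.28 ± 0.25 (limma adjusted p = 0.815) with all libraries and -0.11 with pairs B and C alone. It was -0.0027 without control A, in a fit that keeps mutant A, the highest mutant.

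**Figure D2:**
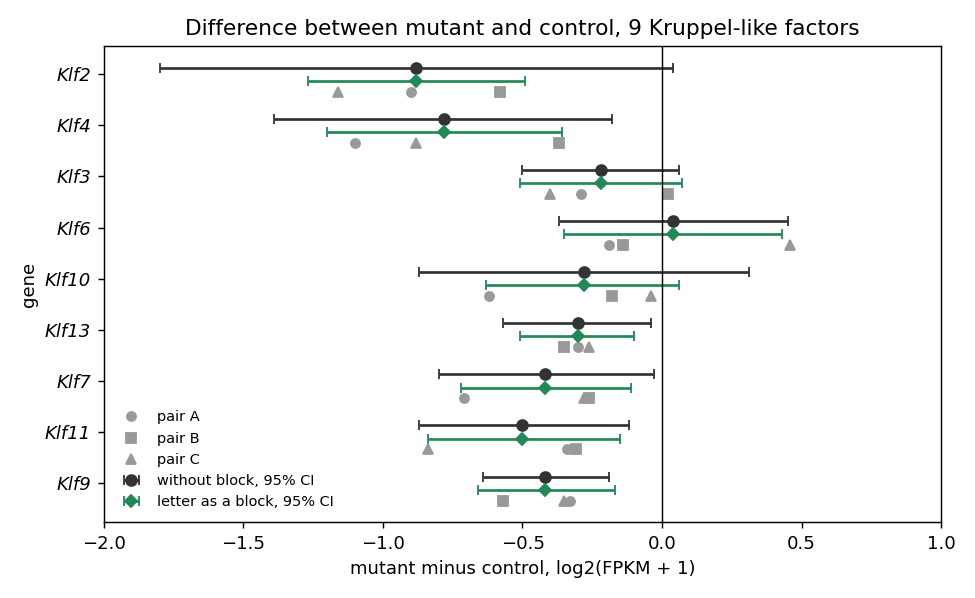
Mutant minus control on the log2(FPKM + 1) scale for each member, as the limma estimate with its 95% interval without a block (black) and with the pair as a block (green), and as the difference within each pair (grey symbols). The estimates run from -0.88 for Klf2 to 0.04 for Klf6, the block narrows the interval most for Klf2, and 7 members have all 3 pairs to the left of 0.

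The authors' deposited table gave log2 fold changes of -0.88 for Klf2 and -0.79 for Klf4, close to those above. An unadjusted p under 0.05 was given in the authors' deposited table for 3 members, Klf13 at 0.00677, Klf9 at 0.0327 and Klf2 at 0.034. Klf4, Klf7 and Klf11, under 0.05 by limma without the block, had authors' p-values of 0.0679, 0.105 and 0.105. The share of all rows under 0.05 by the authors' p was not computed, so this count has no background beside it.

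Members whose levels went together across the 6 libraries were Klf2 and Klf7 (Pearson r = 0.89), Klf4 and Klf11 (0.89) and Klf2 and Klf3 (0.88), on the log2(FPKM + 1) scale. Klf2 and Klf4 had an r of 0.83. Klf6 stood apart, with an r of -0.44 to 0.40 with the others. These values describe 6 libraries, and the difference between the groups and between the pairs both enter them. Among 8656 rows of at least 5 FPKM, the patterns most like that of Klf2 were those of Bpnt1 (r = 0.987), Adprh (0.984), Pigc (0.983) and Kif1b (0.972), and their levels spanned a far smaller range than Klf2: Bpnt1 lay between 9.92 and 14.6 FPKM. The patterns most like that of Klf4 were those of Cisd3 (0.997), Ackr2 (0.983), Msrb1 (0.981) and Slc15a3 (0.98). For both members these are the highest of 8656 values of r over 6 libraries. How high r would reach by chance among so many rows was not tested, so shared control of these genes is not shown. Ackr2, a decoy receptor of chemokines, was at 53.4, 50.3 and 42.2 FPKM in the controls and 23.5, 36.2 and 16.4 FPKM in the mutants.

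**Figure D3:**
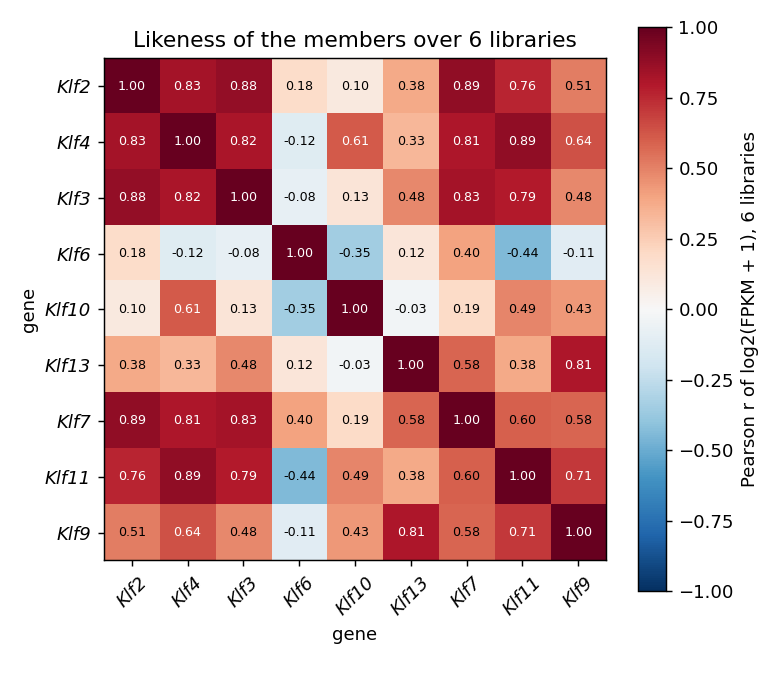
Pearson r of log2(FPKM + 1) between each pair of members over the 6 libraries, with the color scale from -1 (blue) to 1 (red) and the value in each cell. Klf2, Klf4, Klf3, Klf7 and Klf11 have r of 0.60 to 0.89 with one another, and Klf6 has no r above 0.40.

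For the regulators upstream of the flow response only transcript levels were measured, and the activity of the cascade was not tested. Of 14 genes of the ERK5, MEF2 and CCM group, all measured, 0 passed the test, 0 had an unadjusted limma p under 0.05, 11 were lower and 3 higher in mean, and the median log2 fold change was -0.08. The kinase Map3k3, at the head of the cascade, was at 50.3 ± 4.44 and 55.4 ± 5.12 FPKM in control and mutant libraries, and Mapk7, which encodes ERK5, at 22.7 ± 1.55 and 20.9 ± 2.3 FPKM. Heg1, the surface partner of the CCM proteins, was at 103 ± 7.33 and 113 ± 11.6 FPKM, and the deacetylase Hdac5, a MEF2 repressor, at 24.1 ± 8.64 and 17.7 ± 0.503 FPKM. Adjusted limma p for these 4 lay between 0.774 and 0.826.

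Of 12 genes of flow sensing at the cell surface, 0 passed the test, 7 were lower and 5 higher in mean, and the median was -0.05. The mutants lay above all controls in 1 (Piezo1) and below all controls in 1 (Gna11), against 7.12% and 6.57% of rows. The stretch-activated channel Piezo1 was at 77.4, 78.1 and 80 FPKM in the controls and 88.9, 87 and 104 FPKM in the mutants, above all controls (log2 fold change 0.24, limma adjusted p = 0.619). The semaphorin receptor Plxnd1 was higher in mean at 139.6 ± 20.3 and 196 ± 68.5 FPKM, the G protein subunit Gna11 lower at 57.2 ± 3.37 and 49.4 ± 2.44 FPKM, and the VEGF receptor Kdr lower at 296 ± 16.5 and 243 ± 40.4 FPKM (limma adjusted p of 0.638 to 0.704). Of 14 corepressors, coactivators and ubiquitin ligases that partner the family, 0 passed, with 6 lower and 8 higher in mean and a median of 0.07. The deacetylase Hdac1 was at 53.7 ± 4.73 and 62.1 ± 0.779 FPKM, Crebbp at 12.8 ± 2.31 and 14.7 ± 2.58 FPKM, Sin3b at 49.7 ± 1.11 and 53.3 ± 5.35 FPKM, and Hdac2 at 55.7 ± 2.44 and 52.8 ± 0.892 FPKM (limma adjusted p of 0.64 to 0.865).

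Among genes that Klf2 and Klf4 are known to raise in endothelium, 12 of 15 had a mean of at least 1 FPKM, 0 passed the test, and 8 were lower and 4 higher in mean, with a median of -0.20. Of the 12, 1 was lower and 1 higher at an unadjusted limma p under 0.05, against 4.29% and 3.81% of rows. The mutants lay below all controls in 2 and above all controls in 1, against 6.57% and 7.12% of rows. The lipid phosphatase Plpp3, listed under its older symbol Ppap2b, was at 139.5, 106 and 116 FPKM in the controls and 104, 91.1 and 80.9 FPKM in the mutants, below all controls (log2 fold change -0.39, limma adjusted p = 0.593). S1pr1, the sphingosine receptor of endothelium, was at 494, 276 and 339 FPKM in the controls and 244, 282 and 221 FPKM in the mutants. It was lower in mutants A and C and near level in pair B, as was the protease inhibitor Timp3 at 136 ± 71.9 and 72 ± 14.1 FPKM (log2 fold changes of -0.53 and -0.80, limma adjusted p of 0.625 and 0.635). Hmox1, the heme oxygenase, stood at 17.5 ± 0.9 and 22.1 ± 3.43 FPKM, with the mutants above all controls (limma adjusted p = 0.615). Thbd (thrombomodulin) and Nos3 (endothelial nitric oxide synthase), named after their values were seen as the best known targets, differed in size. Thbd was at 542, 649 and 489 FPKM in the controls and 451, 472 and 215 FPKM in the mutants (-0.64 ± 0.31, limma adjusted p = 0.667), with all mutants below the controls. Nos3 was at 58.6, 41.1 and 42.4 FPKM in the controls and 46.2, 44.4 and 29 FPKM in the mutants, and its groups overlapped (-0.25 ± 0.22, limma adjusted p = 0.807).

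Among 15 genes that Klf2 and Klf4 are known to hold down, all measured, 12 were higher and 3 lower in mean, and the median was 0.50. After adjustment over all rows 0 passed the test, while 6 had an unadjusted limma p under 0.05, all higher, against 3.81% of rows, and in 2 (Il6 and Sele) the mutants lay above all controls, against 7.12% of rows. Edn1, which encodes the vasoconstrictor endothelin, was at 91.7, 56.1 and 49.8 FPKM in the controls and 162, 84.8 and 244 FPKM in the mutants. It was higher in every pair, although mutant B lay under control A (log2 fold change 1.22 ± 0.40, limma adjusted p = 0.546). The adhesion molecule Vcam1 was at 1.7, 8.44 and 3.75 FPKM in the controls and 6.79, 15.1 and 12.2 FPKM in the mutants, with replicate B highest in both groups (1.26 ± 0.47, limma adjusted p = 0.593, and 0.152 with the pair as a block). The log2 fold change was 1.08 for the cytokine Il6 and 2.17 for E-selectin (Sele), with limma adjusted p of 0.38 and 0.576. Both were low in the controls. Il6 was at 0.827, 0.972 and 0.934 FPKM in the controls and 1.76, 4.29 and 3.55 FPKM in the mutants. Sele was at 1.49, 2.3 and 1.51 FPKM in the controls and 9.43, 3.23 and 41.3 FPKM in the mutants, with mutant C far above the others. The medians of this list within pairs A, B and C were 0.49, 0.11 and 1.12. In the list of raised genes they were -0.05, 0.02 and -0.49. Pair B also had the smallest differences among the Car4-high capillary markers (-2.32, -1.13 and -2.59) and the mesenchymal markers (-0.47, -0.01 and -1.08). Both target lists were chosen with earlier results of these data known, and whether the targets followed Klf2 and Klf4 was not tested.

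**Figure D4:**
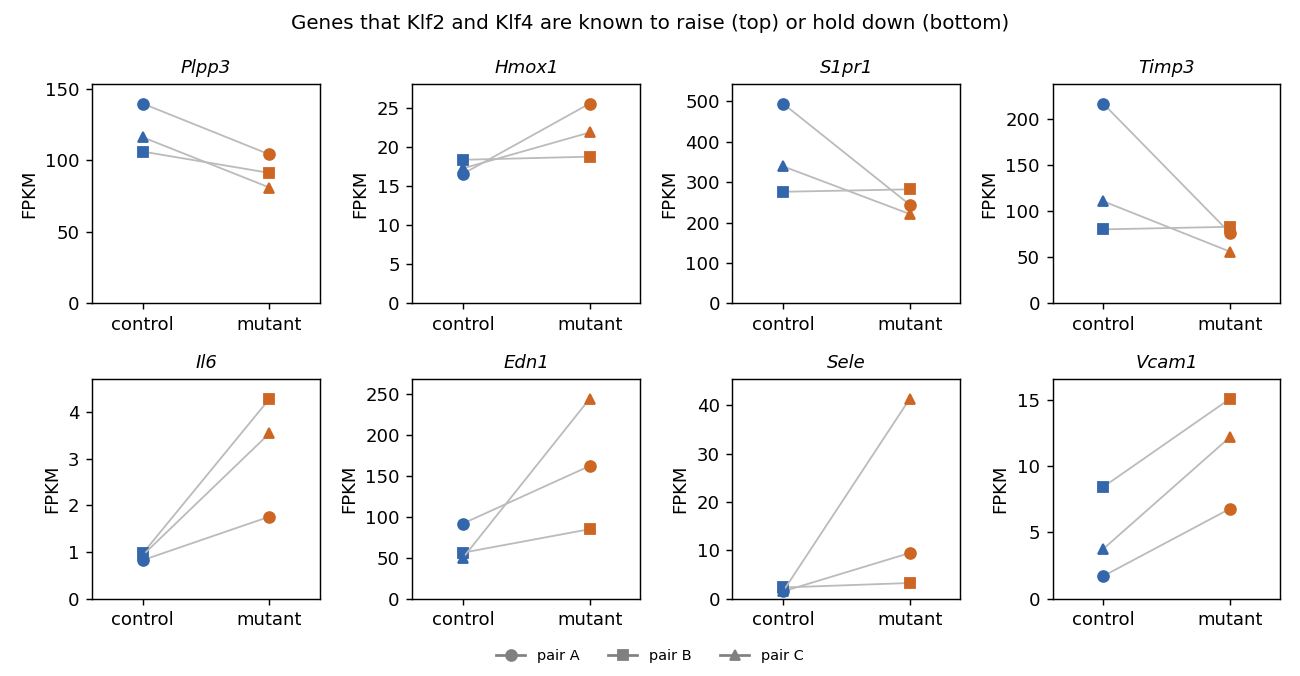
FPKM per library, from 0, with lines joining the control and mutant library of a pair, for the 4 genes of lowest p among those that Klf2 and Klf4 are known to raise (top row) and to hold down (bottom row). Il6, Edn1, Sele and Vcam1 are higher in the mutant in every pair, and S1pr1 and Timp3 are lower in pairs A and C and near level in pair B.

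The responses that Klf9, Klf10 and Klf11 are known to belong to were split in direction. Of 9 glucocorticoid response genes, 0 passed the test, 3 were lower and 6 higher in mean, and the median was 0.35. At an unadjusted limma p under 0.05, 2 were lower and 2 higher, against 4.29% and 3.81% of rows. The mutants lay below all controls in 2 and above all controls in 3, against 6.57% and 7.12% of rows. Tsc22d3, which encodes the glucocorticoid-induced leucine zipper, was at 81.7, 75.3 and 54.6 FPKM in the controls and 43.1, 46.9 and 28.2 FPKM in the mutants, below all controls (log2 fold change -0.84, limma adjusted p = 0.46, and 0.106 with the pair as a block). The clock gene Per1 was also below all controls, at 16.5 ± 1.45 and 12.3 ± 1.74 FPKM. The chaperone partner Fkbp5, at 5.83 ± 0.645 and 8.84 ± 1.61 FPKM, and the metallothionein Mt2, at 1.74 ± 1.36 and 3.96 ± 0.569 FPKM, had their mutants above all controls (limma adjusted p of 0.489 to 0.57 for Per1, Fkbp5 and Mt2). Of 10 early TGF-beta response genes, 0 passed the test, 6 were lower and 4 higher in mean, and the median was -0.10. The feedback inhibitor Pmepa1 was at 18.3 ± 1.55 and 13.1 ± 2.2 FPKM, with the mutants below all controls, and the corepressor Tgif1 at 12.3 ± 0.966 and 17.3 ± 4.24 FPKM. The matrix protein Tgfbi was at 236 ± 89.1 and 137 ± 90.4 FPKM and the corepressor Ski at 93.8 ± 10.6 and 81.4 ± 4.27 FPKM (limma adjusted p of 0.509 to 0.717 for these 4).

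Markers of other cells and of vessel types differed between the libraries as well. Of 10 markers of Car4-high capillary cells, 9 were lower in mean and 2 (Chst1 and Emp2) passed the test, or 1 (Chst1) with the pair as a block, with a median of -1.68. Their summed level was 1743 to 1817 FPKM in the controls and 749 to 1769 FPKM in the mutants, where Igfbp7 alone stood at 1393 FPKM in mutant C. In 8 of the 10 the mutants lay below all controls, against 6.57% of rows, 0 of 8 general capillary markers and 1 of 14 pan-endothelial markers. The general capillary markers had a median of 0.14 and the pan-endothelial markers a median of -0.06, with 0 passing in both. The 12 mesenchymal markers, all measured, summed to 445, 1409 and 1347 FPKM in the controls and 320, 1317 and 589.8 FPKM in the mutants, lowest in pair A and similar within pair B (median -0.54). The 8 alveolar type 1 markers summed to 284 to 344 FPKM in the controls and 161 to 289 FPKM in the mutants, with 6 tested and a median of -0.15. The 9 alveolar type 2 and airway markers summed to 68.6 to 215 FPKM and 44.2 to 124 FPKM, with 6 tested and a median of -0.47. The 8 rows of erythroid and platelet markers summed to 89.8 to 309 FPKM and 34.4 to 92.4 FPKM, with Ppbp listed at 0 in at least 1 library, 7 tested and a median of -1.31. The 6 mesothelial markers summed to 18.5 to 60.8 FPKM and 15.7 to 53.6 FPKM, with 5 tested and a median of -0.25. Of the leukocyte markers 3 were tested (median 0.26), and Cd3e was listed at 0 in at least 1 library. None of these other lists held a row that passed. The part of these cells and vessel types in the levels of the Krüppel-like factors was not tested.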

How the data were processed

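RNA from sorted lung endothelial cells was sequenced as paired reads of 76 nt and aligned to mouse build mm10, per the labels' protocols. The submitters' processing notes name Cuffdiff, Cufflinks 2.2.1, TopHat2 2.0.14 and Bowtie2 2.2.3. The authors deposited 1 table of FPKM per library, with their own log2 fold change and unadjusted p-value, per the file headers. The depth in fragments is unknown, and relative depth was read from the commonest ratio between rows under 0.1 FPKM.

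Levels were compared with limma 3.58.1 in R 4.3.3 (empirical Bayes with trend, pseudocount 1, rows whose mean reached 1 FPKM), and the script was tested on simulated data. Fold changes are on the log2(FPKM + 1) scale, which understates the change of low genes. The labels give replicates as separate samples without saying that each is its own animal, so a p-value reflects only the scatter among these libraries, which may be technical. Pairs were taken from the title letters, with correlations of deviations all above 0.1. The description label of pair A has a prefix of its own, whose meaning is not given, and it was tried as a batch term. Within pair A no test is possible with 1 library a group.

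Besides the members there were 18 lists, of other family genes, regulators, flow sensors, partners, targets, hormone, TGF-beta and dissociation responses, and cell type markers. All members are named, and of each pathway list up to 4 genes of lowest p. Thbd, Nos3, Sp1, Klf5 and Klf1 are named outside that rule. Of the marker lists, sums, counts and medians are given beside called genes. Cldn5 and Igfbp7, which were not called, were picked from their values for their part in a sum, and Ppbp and Cd3e for values of 0. The members and lists were chosen with earlier results of these data known. Promoter sequences are those of RefSeq on GRCm38.p6, and gene positions those of GENCODE on GRCm38, the same build as mm10.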

Additional observations from a re-analysis of the deposited data

How the results depend on the processing

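None of the 9 members was called under any of the 18 alternatives: 2 other pseudocounts, 2 filters on low values, 2 rescalings, a fit without the variance trend, the replicate block, the label batch term, each library left out, and the pairs taken 2 at a time, of which pairs A and B and pairs A and C were added after the data were seen. The lowest limma adjusted p of any member was 0.218, for Klf2 with the replicate block. Of 162 member values, 159 kept their direction and 3 reversed, all of Klf6, from 0.04 to -0.17 in pairs A and B alone, and within a range of -0.09 to 0.19 over libraries left out; the cause was not tested. The range was -1.29 to -0.62 for Klf2, -1.02 to -0.57 for Klf4, -0.46 to -0.34 for Klf9 and -0.59 to -0.31 for Klf11. An unadjusted limma p under 0.05 was reached in 18 of 18 alternatives for Klf11, 17 for Klf9, 14 for Klf4 and 4 for Klf2. It was reached in 12 each for Klf7 and Klf13, 1 for Klf3 and 0 for Klf6 and Klf10. Among all rows tested, 391 (pairs A and B alone) to 1434 (replicate block) had such a p. The alternatives reuse the same 6 libraries, so these counts are not repeated evidence.

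Over all rows, the count of genes lower in the mutant went from 16 to 6 with the replicate block, 10 with a filter at 5 FPKM, where fewer rows are tested, and 5 to 8 with 1 library left out. It was 5 lower and 1 higher in pairs B and C, 2 lower and 1 higher in pairs A and B, and 8 lower and 0 higher in pairs A and C, where fewer libraries are tested. With 1 library left out, 0 to 2 genes were higher. The replicate block changed no call of a member.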

Other observations

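Of 17 further Klf and Sp genes found in the table, 8 had a mean of at least 1 FPKM, 0 passed the test, 5 were lower and 3 higher in mean, and the median log2 fold change was -0.17. Klf12, a repressor that binds the CtBP corepressors as Klf3 does, was at 4, 3.89 and 3.95 FPKM in the controls and 2.27, 2.1 and 0.908 FPKM in the mutants. The mutants lay below all controls, and the log2 fold change was -0.88 ± 0.22 (limma adjusted p = 0.43, and 0.275 with the pair as a block). Klf16 was at 13.8 ± 1.73 and 11.8 ± 2.33 FPKM, Klf8 at 1.18 ± 0.237 and 0.894 ± 0.321 FPKM and Sp6 at 1.35 ± 0.781 and 0.715 ± 0.568 FPKM in control and mutant libraries, with limma adjusted p of 0.773 to 0.827. The broadly expressed Sp1 lay between 19.6 and 23 FPKM in all 6 libraries. Klf5, an epithelial and smooth muscle factor, had a mean of 0.81 FPKM, and the erythroid factor Klf1 was at most 0.0925 FPKM and listed at 0 in 3 libraries.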
